A study of Mus musculus with 5 samples.

Results

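The comparison is between PM10/OVA/Dex and PM10/OVA lung, the pair of groups whose labels differ in dexamethasone alone. It was defined from the sample labels and uses 2 of the 5 whole-lung RNA-seq libraries, 1 per group. The levels in PM10/OVA/CPX, PM10 and control lung are set beside it. All groups were female, wild-type BALB/c mice, and the sources used here do not give their age. PM10/OVA/Dex mice received PM10 (inhalable particulate matter) into the nose 4 times over 2 weeks, ovalbumin (OVA, an egg-white allergen) by injection and then into the nose, and dexamethasone by intraperitoneal injection 3 times in the last week. PM10/OVA/CPX mice received, in place of dexamethasone, a chitinase-1 inhibitor abbreviated CPX, injected 6 times over 3 weeks. PM10/OVA mice received the particles and the allergen, PM10 mice the particles, and control mice no treatment. The last challenge came 2 days before the lungs were collected. The sources used here do not give doses, the time between the last dexamethasone injection and sampling, the number of mice behind each library or any vehicle injection of PM10/OVA mice, so dexamethasone and the act of injecting it cannot be told apart.

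Dexamethasone is a synthetic glucocorticoid. It binds the glucocorticoid receptor, encoded by Nr3c1, which moves to the nucleus, raises transcription of genes with receptor binding sites such as Tsc22d3 and Fkbp5, and holds down transcription driven by inflammatory factors such as NF-kB. In the allergic airway, glucocorticoids are known for lowering chemokines, cytokines and the influx of leukocytes, while inhaled particles are known to engage macrophages and to draw in neutrophils.

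Of 23183 genes listed in the deposited count tables, 14305 were measured, meaning a mean of at least 1 CPM (counts scaled by library total and TMM factor) over the 5 libraries. Library totals were 11993222 counts for PM10/OVA/Dex and 16036136 for PM10/OVA, so that 1 count was worth 0.0841 CPM in PM10/OVA/Dex and 0.0631 CPM in PM10/OVA. The lung's own markers were abundant in both: Sftpc, of alveolar type 2 cells, was at 13741 CPM in PM10/OVA/Dex and 13995 CPM in PM10/OVA, Ager, of alveolar type 1 cells, at 1558 CPM in PM10/OVA/Dex and 1697 CPM in PM10/OVA, and Pecam1, of endothelium, at 908 CPM in PM10/OVA/Dex and 947 CPM in PM10/OVA. No group has replicates, so no test between conditions exists and no difference has a replicate check. The fold of a single gene is its CPM ratio, and the exact 95% interval in brackets covers counting error only. The libraries also differed in genes of heart muscle, fat and cartilage, grouped here in lists named for tissues that border the lung. Whether this RNA came from within the lung or from beside it was not tested. Summed CPM of 20 measured heart-muscle genes was 890.0 CPM in PM10/OVA/Dex, 397 in PM10/OVA/CPX, 425 in PM10/OVA, 927 in PM10 and 4110.5 in control. Control was thus the highest library, and PM10 lay near PM10/OVA/Dex. Those lists are described in full further on, beside the genes they move with.

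Genes were ranked by the difference in log2(CPM + 1), PM10/OVA/Dex minus PM10/OVA, a scale that shrinks ratios of weakly expressed genes. The ratio was centred on -0.01, with quartiles at -0.20 and 0.18. Of the 14305 measured genes 6884 lay above 0 and 7420 below, the background for the counts above and below 0 given for each list. The 20 housekeeping genes had a median of -0.29, with 15 below 0, so list medians of that size also occurred in commonly used reference genes. In PM10/OVA/Dex 172 genes, or 1.20% of those measured, exceeded PM10/OVA by 2-fold or more, and 229 genes, or 1.60%, lay below it by as much. The counts were larger or smaller with other constants added before the logarithm: 294 genes were higher with 0.25 CPM, and 55 were higher and 101 lower with 5 CPM. At 4-fold, 22 genes were higher and 30 lower. The lower end held abundant inflammatory genes such as Saa3, Timp1 and Cxcl5, and the higher end held heat-shock, mucous and airway-lining genes together with heart, fat and cartilage genes.

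**Figure D1:**
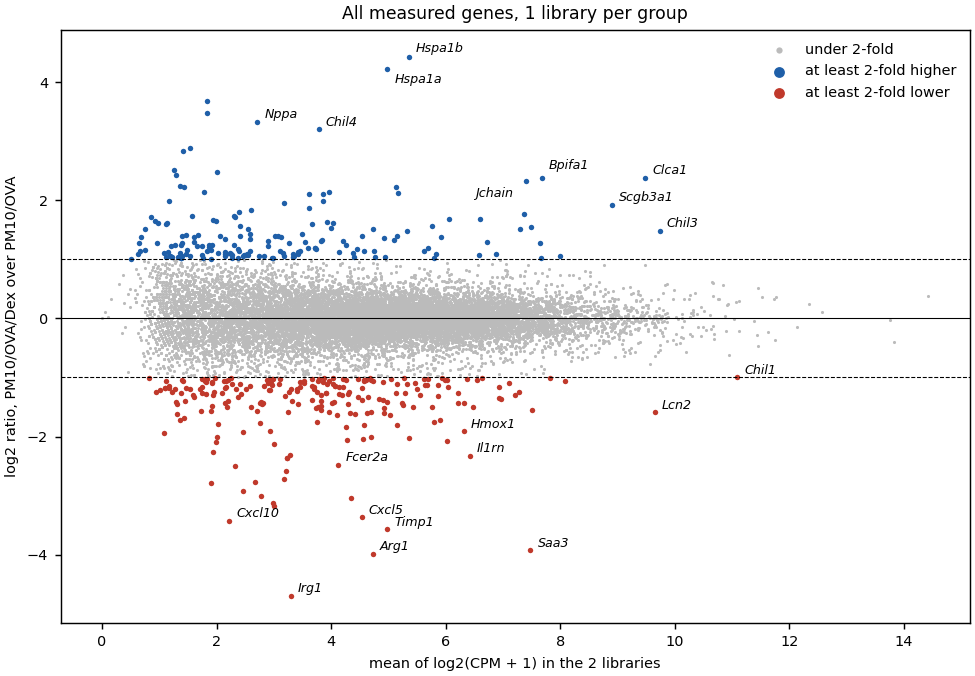
Each point is 1 of 14305 measured genes. The horizontal axis is the mean log2(CPM + 1) of the PM10/OVA/Dex and PM10/OVA libraries, and the vertical axis is the log2 ratio, PM10/OVA/Dex over PM10/OVA. Blue points (172 genes) are higher by 2-fold or more, red points (229 genes) lower by 2-fold or more, and the named lower genes reach below -4 for Irg1.

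The receptor itself was present at similar levels. Nr3c1, the glucocorticoid receptor, was at 252 CPM in PM10/OVA/Dex, 264 in PM10/OVA/CPX, 267 in PM10/OVA, 312 in PM10 and 342 in control, a PM10/OVA/Dex level 1.06-fold lower (1.01 to 1.11) than in PM10/OVA. Across 14 genes of the receptor, its relatives, its chaperones and the enzymes that activate or inactivate its hormone, the median log2 ratio was 0.18, and 1 gene was at least 2-fold lower. That gene was Hsd11b2, which inactivates corticosterone, on 14 counts in PM10/OVA/Dex, against 104 in PM10/OVA (5.57-fold lower, 3.18 to 10.5). Nr3c2, the mineralocorticoid receptor, had 15.1 CPM in PM10/OVA/Dex, against 8.01 CPM in PM10/OVA. Hsd11b1, which regenerates active corticosterone, had 165 CPM in PM10/OVA/Dex, against 131 CPM in PM10/OVA.

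Classical glucocorticoid-induced targets lay mostly above 0, with few genes past 2-fold. Of 30 measured members, 21 lay above 0, 3 were at least 2-fold higher and 3 lower by as much, with a median log2 ratio of 0.28, against -0.01 over all measured genes. Zbtb16, a zinc-finger transcription factor (GRCm38 chromosome 9, 48654297 to 48836222), was at 21.2 CPM in PM10/OVA/Dex, 22.2 in PM10/OVA/CPX, 6.31 in PM10/OVA, 15 in PM10 and 25.9 in control. The PM10/OVA library was the lowest of the 5 for Zbtb16, and PM10/OVA/Dex was 3.36-fold higher (2.65 to 4.28) than it. Pdk4, a kinase that restrains glucose oxidation, was at 28.3 CPM in PM10/OVA/Dex, 9.34 in PM10/OVA/CPX, 10.7 in PM10/OVA, 20.4 in PM10 and 29.1 in control, which put PM10/OVA/Dex 2.63-fold higher (2.18 to 3.19). Klf15, a transcription factor of amino acid and lipid metabolism, was at 53.3 CPM in PM10/OVA/Dex, 23.9 in PM10/OVA/CPX, 20.6 in PM10/OVA, 37.9 in PM10 and 37.7 in control, 2.58-fold higher (2.26 to 2.96). PM10/OVA/Dex had the highest Klf15 level of the 5 libraries, whereas for Zbtb16 and Pdk4 control lung was the highest. Klf15 and Pdk4 are also active in heart muscle. The heart-muscle list summed to 890.0 CPM in PM10/OVA/Dex, against 425 CPM in PM10/OVA and 927 CPM in PM10, and its part in these values was not tested.

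Several targets known for their response in many cell types were higher by less than 2-fold. Tsc22d3, the leucine zipper protein known as GILZ (chromosome X, 140539528 to 140600659), had 413 CPM in PM10/OVA/Dex, against 278 CPM in PM10/OVA, 1.48-fold higher (1.42 to 1.55). Fkbp5, a receptor co-chaperone (chromosome 17, 28399094 to 28517527), had 34.7 CPM in PM10/OVA/Dex, against 27.1 CPM in PM10/OVA, 1.28-fold higher (1.12 to 1.47). Per1, a clock gene, was 1.63-fold higher (1.52 to 1.75), and Klf9, a zinc-finger repressor, 1.63-fold higher (1.53 to 1.74). Cdkn1a, an inhibitor of the cell cycle, had 119 CPM in PM10/OVA/Dex, 47.7 in PM10/OVA/CPX, 71.7 in PM10/OVA, 61.3 in PM10 and 30.2 in control, so that PM10/OVA/Dex was the highest library. Ddit4, an inhibitor of mTORC1, was 1.61-fold higher (1.45 to 1.80), Errfi1, an inhibitor of EGF receptor signalling, 1.56-fold higher (1.48 to 1.64), and Dusp1, a phosphatase that switches off MAP kinases, 1.30-fold higher (1.25 to 1.36). Smaller ratios were seen for Sult1a1 (1.36-fold higher, 1.20 to 1.54), Pnpla2 (1.32-fold higher, 1.24 to 1.40), Tsc22d1 (1.28-fold higher, 1.22 to 1.33), Bcl6 (1.23-fold higher, 1.09 to 1.38), Cebpd (1.20-fold higher, 1.13 to 1.28), Angptl4 (1.15-fold higher, 1.05 to 1.26) and Glul (1.15-fold higher, 1.11 to 1.19). PM10/OVA/Dex lay below control lung for Per1 (150.1 CPM in PM10/OVA/Dex, against 154 in control) and above it for Errfi1 (242 CPM in PM10/OVA/Dex, against 215 in control). PM10 lung, which had no dexamethasone, exceeded PM10/OVA/Dex for Tsc22d3 (481 CPM in PM10), Per1 (212 CPM) and Errfi1 (248 CPM). For the other genes named here PM10 was lower than PM10/OVA/Dex, by little for Dusp1 (353 CPM in PM10, against 357 CPM in PM10/OVA/Dex).

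The remaining members were level or lower. Sgk1, a kinase of ion transport, was at 197 CPM in PM10/OVA/Dex and 188 CPM in PM10/OVA, Zfp36, which destabilises cytokine mRNAs, at 116 CPM in PM10/OVA/Dex and 116 CPM in PM10/OVA, and Ampd3, an AMP deaminase, at 25.3 CPM in PM10/OVA/Dex and 25.1 CPM in PM10/OVA, each with an interval that held 1. Lower were Sesn1 (1.14-fold lower, 1.02 to 1.27), Nfkbia, the NF-kB inhibitor (1.17-fold lower, 1.11 to 1.23), Mt1 (1.21-fold lower, 1.10 to 1.35), Rgs2 (1.36-fold lower, 1.26 to 1.47), Tgm2 (1.41-fold lower, 1.37 to 1.46) and Cd163, the macrophage haemoglobin receptor (1.71-fold lower, 1.42 to 2.06). Il1r2, a decoy receptor for interleukin 1, had 38 counts in PM10/OVA/Dex, against 162 in PM10/OVA (3.20-fold lower, 2.23 to 4.68). Mt2, a metallothionein, was at 22.1 CPM in PM10/OVA/Dex, 21.7 in PM10/OVA/CPX, 61.1 in PM10/OVA, 20.1 in PM10 and 10.3 in control (2.76-fold lower, 2.41 to 3.18), and Lcn2, an iron-sequestering protein, at 462 CPM in PM10/OVA/Dex, 716 in PM10/OVA/CPX, 1390.4 in PM10/OVA, 980.1 in PM10 and 68.6 in control (3.01-fold lower, 2.92 to 3.10). For Mt2, Il1r2 and Lcn2 the PM10/OVA library was the highest of the 5. Mt1 and Mt2 are close relatives whose reads may have been divided unevenly between them.

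**Figure D2:**
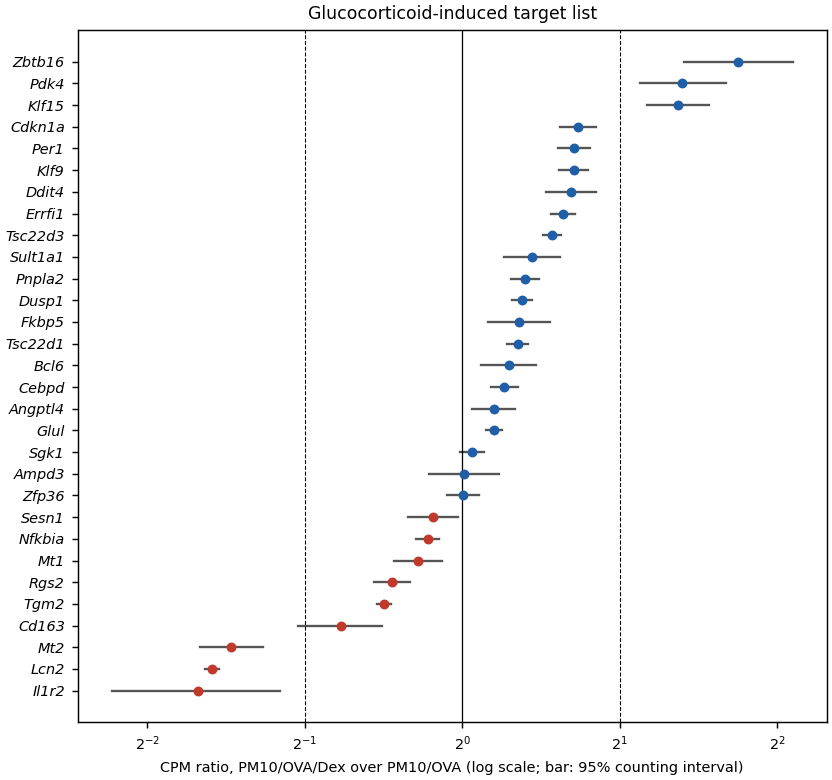
Points are CPM ratios, PM10/OVA/Dex over PM10/OVA, on a log axis for the 30 measured genes of the glucocorticoid-induced target list, and bars are 95% intervals from counting error alone. The solid line marks 1 and the dashed lines mark 2-fold: Zbtb16, Pdk4 and Klf15 lie above the upper one and Mt2, Lcn2 and Il1r2 below the lower one.

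Clock genes, several of which respond to glucocorticoids, and the NF-kB circuit were within 2-fold almost throughout. Among 19 clock genes the median log2 ratio was 0.18 and no gene passed 2-fold. Nr1d1 is also on the list of the receptor and its relatives, and Per1 on that of induced targets, so these lists are not independent. Per2 had 36.4 CPM in PM10/OVA/Dex, against 23.7 CPM in PM10/OVA, Nr1d1, a repressor of the clock, 202 CPM in PM10/OVA/Dex, against 133 CPM in PM10/OVA, and Bhlhe41, another repressor, 31.5 CPM in PM10/OVA/Dex, against 44.5 CPM in PM10/OVA. Per2 was at 44.2 CPM in PM10 and 52.4 in control, and Nr1d1 at 148 in PM10 and 244 in control. The summed clock list was 1298 CPM in PM10/OVA/Dex, 1161 in PM10/OVA/CPX, 1074 in PM10/OVA, 1451 in PM10 and 1699 in control. Of 18 NF-kB subunits and feedback inhibitors, 3 lay above 0 and the median was -0.23. Nfkbie, an inhibitor of NF-kB that NF-kB itself induces, was the 1 member at least 2-fold lower (16 CPM in PM10/OVA/Dex, against 34.1 CPM in PM10/OVA). Tnfaip3, a feedback inhibitor known as A20, had 40.2 CPM in PM10/OVA/Dex, against 72.6 CPM in PM10/OVA, Ikbke, an IkB-related kinase, 11.9 CPM in PM10/OVA/Dex, against 22 CPM in PM10/OVA, Nfkb2, the p100 subunit, 54.7 CPM in PM10/OVA/Dex, against 88.6 CPM in PM10/OVA, and Tnip1, a partner of A20, 48.9 CPM in PM10/OVA/Dex, against 78.2 CPM in PM10/OVA.

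The lowest ratios belonged to genes of innate inflammation. In whole-lung RNA, fewer cells of a type and less RNA per cell cannot be told apart, which applies to these genes and to all cell markers further on. The 20 genes ranked lowest were Irg1, Arg1, Saa3, Timp1, Cxcl10, Cxcl5, Ccl2, Ccl4, Cxcl3, Cxcl2, Hpx, Gpr84, Cxcl9, Ccl7, Il1f9, Rmrp, Fcer2a, Ccl3, Chl1 and Il1rn. PM10/OVA was the highest of the 5 libraries for 17 of the 20, PM10/OVA/Dex was the lowest of the 4 exposed libraries for 16, and control was the lowest of all 5 for 16. Ranking by a low ratio itself favours a high PM10/OVA level and a low PM10/OVA/Dex level, so these orders are not separate evidence. In PM10/OVA/CPX lung, which received the other treatment, all 20 were also below PM10/OVA. Both treated libraries are set here against the same PM10/OVA library, whose high levels the ranking favours. Outside inflammation, the list held Rmrp, the RNA component of the ribonuclease MRP, at 1.09 CPM in PM10/OVA/Dex, 7.27 in PM10/OVA/CPX, 10.8 in PM10/OVA, 1.24 in PM10 and 1.33 in control (9.93-fold lower, 5.65 to 19), and Chl1, a cell adhesion molecule, at 3.11 CPM in PM10/OVA/Dex, 1.84 in PM10/OVA/CPX, 20.2 in PM10/OVA, 6.05 in PM10 and 5.36 in control (6.49-fold lower, 4.61 to 9.38). Their levels are shown for all libraries in the plot of ranked genes.

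**Figure D3:**
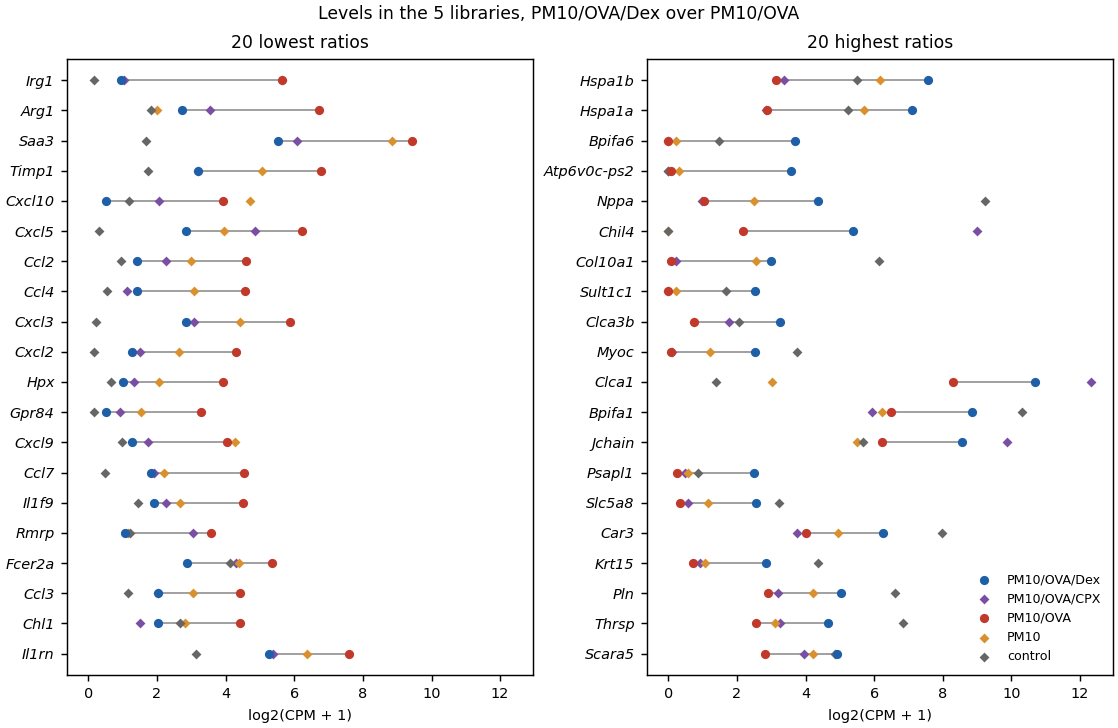
Levels of the 20 genes with the lowest (left) and the 20 with the highest (right) log2 ratio, as log2(CPM + 1) in each of the 5 libraries, 1 library per group. Circles are PM10/OVA/Dex (blue) and PM10/OVA (red), joined by a line, and diamonds are PM10/OVA/CPX, PM10 and control. On the left PM10/OVA is the highest library for 17 genes, and on the right control is the highest for 9, PM10/OVA/Dex for 8 and PM10/OVA/CPX for 3. The ranking itself favours a high PM10/OVA level on the left and a high PM10/OVA/Dex level on the right.

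Chemokines that attract neutrophils through the receptor Cxcr2 were among the lowest. The promoters of Cxcl1, Cxcl2 and Cxcl3 are shown because these were low, lie in 1 cluster on chromosome 5 and have textbook NF-kB sites near their starts. They were chosen among the list's windows for holding a match. Cxcl5, of the same cluster, was also low and its promoter is not shown, while Cxcl15, between Cxcl3 and Cxcl1, was level and its window held no match. The windows run from 250 bases before to 50 after the transcription start (RefSeq, GRCm38.p6), written 5′ to 3′ on the gene's strand, and capitals mark matches to the NF-kB consensus on either strand. Cxcl10, an interferon-induced chemokine farther along the same chromosome, is set beside them.
Cxcl1 (chr5:90890995-90891294, plus strand): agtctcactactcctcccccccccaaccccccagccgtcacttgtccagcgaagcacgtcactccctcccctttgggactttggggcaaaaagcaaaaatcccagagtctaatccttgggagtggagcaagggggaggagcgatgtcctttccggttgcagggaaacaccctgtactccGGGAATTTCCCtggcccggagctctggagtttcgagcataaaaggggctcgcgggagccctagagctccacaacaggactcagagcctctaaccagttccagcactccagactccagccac
Cxcl2 (chr5:90903649-90903948, plus strand): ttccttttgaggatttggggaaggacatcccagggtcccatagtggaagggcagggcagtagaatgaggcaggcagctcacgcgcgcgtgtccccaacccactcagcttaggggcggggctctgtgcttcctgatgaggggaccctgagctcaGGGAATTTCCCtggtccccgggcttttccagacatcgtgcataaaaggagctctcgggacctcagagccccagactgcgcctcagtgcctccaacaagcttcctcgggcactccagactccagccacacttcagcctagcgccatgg
Cxcl3 (chr5:90785851-90786150, plus strand): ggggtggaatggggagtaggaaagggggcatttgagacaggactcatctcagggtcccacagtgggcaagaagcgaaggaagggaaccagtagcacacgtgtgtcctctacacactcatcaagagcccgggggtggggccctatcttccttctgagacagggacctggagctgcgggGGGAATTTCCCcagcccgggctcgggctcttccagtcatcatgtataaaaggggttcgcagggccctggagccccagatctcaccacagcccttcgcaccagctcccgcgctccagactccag
Cxcl10 (chr5:92348840-92349139, minus strand): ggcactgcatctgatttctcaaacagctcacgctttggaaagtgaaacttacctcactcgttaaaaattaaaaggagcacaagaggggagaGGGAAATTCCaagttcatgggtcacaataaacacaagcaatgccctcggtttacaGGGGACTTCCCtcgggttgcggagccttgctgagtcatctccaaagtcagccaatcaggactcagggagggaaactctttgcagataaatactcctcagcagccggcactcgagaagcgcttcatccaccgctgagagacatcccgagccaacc

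Cxcl1, Cxcl2 and Cxcl3 held the same 11 letters, GGGAATTTCCC, which match the consensus on both strands, ending 61, 87 and 63 bases before the start. Cxcl10 held 2 separate stretches, GGGAAATTCC and GGGGACTTCCC. Of 32851 windows of this length in the genome, 8.46% held a match. Among the neutrophil chemokine and receptor genes, 3 of 7 windows did, and among the 20 lowest genes 3 of 18 windows of 14 matched genes did, those of Cxcl2, Cxcl3 and Cxcl10. Genes with higher ratios held it too, in 3 of 15 windows of the 20 highest genes (Hspa1b, Hspa1a and Slc5a8) and in 3 of 12 windows of mucous cell products. The palindromic consensus of the glucocorticoid response element, searched on both strands and found in 0.475% of all windows, was in none of the windows of the 20 lowest genes and in 2 of the 44 windows of 26 matched glucocorticoid-induced targets, those of Sgk1 and Mt1. Such a match is a description of letters and shows neither binding nor its absence.

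The levels of these neutrophil chemokines differed widely between the libraries. Cxcl5, made by epithelium (chromosome 5, 90759360 to 90761624), was at 6.22 CPM in PM10/OVA/Dex, 28 in PM10/OVA/CPX, 73.4 in PM10/OVA, 14.4 in PM10 and 0.231 in control, 11.8-fold lower (9.32 to 15.1) in PM10/OVA/Dex than in PM10/OVA. Cxcl3 was at 6.14 CPM in PM10/OVA/Dex, 7.51 in PM10/OVA/CPX, 57.7 in PM10/OVA, 20.3 in PM10 and 0.173 in control (9.40-fold lower, 7.40 to 12.1). Cxcl2 was at 1.43 CPM in PM10/OVA/Dex, 1.84 in PM10/OVA/CPX, 18.5 in PM10/OVA, 5.22 in PM10 and 0.115 in control (13-fold lower, 7.96 to 22.6). In all 3 the order was PM10/OVA above PM10, both treated libraries near or below PM10 or, for Cxcl5 with CPX, between PM10 and PM10/OVA, and control near 0. Cxcl1 had 75 counts in PM10/OVA/Dex, against 377 in PM10/OVA (3.77-fold lower, 2.94 to 4.90), and its PM10/OVA/Dex level of 6.31 CPM lay beside 6.63 CPM in PM10. Cxcr2, the receptor for these ligands on neutrophils, had 26.3 CPM in PM10/OVA/Dex, against 53.9 CPM in PM10/OVA. Of the 8 genes on this list 5 were at least 2-fold lower, with a median log2 ratio of -1.38. Cxcl15, a chemokine of lung epithelium that was chosen after its values were seen, made up most of the list's summed level and was at 2086 CPM in PM10/OVA/Dex and 2107 CPM in PM10/OVA.

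Chemokines for monocytes, macrophages and T cells were lower to a like degree. Among 13 monocyte chemokines and their receptors, 9 were at least 2-fold lower, 1 lay above 0 and the median log2 ratio was -1.50. Ccl2, the main ligand that draws monocytes through Ccr2, was at 1.68 CPM in PM10/OVA/Dex, 3.83 in PM10/OVA/CPX, 23.2 in PM10/OVA, 6.88 in PM10 and 0.922 in control (13.8-fold lower, 8.81 to 22.9). Ccl7, a second Ccr2 ligand beside it on chromosome 11, was at 2.52 CPM in PM10/OVA/Dex, 2.79 in PM10/OVA/CPX, 22.3 in PM10/OVA, 3.56 in PM10 and 0.404 in control (8.83-fold lower, 6.07 to 13.3), and Ccl12, another, was 3.66-fold lower (2.50 to 5.50). The macrophage inflammatory proteins Ccl3 and Ccl4 had 37 counts in PM10/OVA/Dex, against 321 in PM10/OVA (6.51-fold lower, 4.62 to 9.41), and 20 counts in PM10/OVA/Dex, against 357 in PM10/OVA (13.4-fold lower, 8.54 to 22.2). Summed CPM of the 13 genes was 913 CPM in PM10/OVA/Dex, 1483 in PM10/OVA/CPX, 1364 in PM10/OVA, 1174 in PM10 and 395 in control, so that PM10/OVA/Dex lay between PM10 and control. The chemokines named here were a small part of that sum, which rests mostly on members not named. Ccl2, Ccl7 and Ccl12 are related in sequence, and the counting of reads shared by relatives is not known.

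Cytokines of the innate response followed. Of 17 measured cytokine and receptor genes 8 were at least 2-fold lower, 3 lay above 0 and the median log2 ratio was -0.93, or -0.61 when unmeasured members were kept. Il1b, the inflammasome cytokine, was at 30.6 CPM in PM10/OVA/Dex, 45.4 in PM10/OVA/CPX, 133 in PM10/OVA, 54.4 in PM10 and 16.5 in control (4.34-fold lower, 3.89 to 4.87). Il1rn, the antagonist of the interleukin-1 receptor, was at 37.3 CPM in PM10/OVA/Dex, 40.4 in PM10/OVA/CPX, 190.4 in PM10/OVA, 80.9 in PM10 and 7.73 in control (5.11-fold lower, 4.62 to 5.66). The cytokine and its antagonist thus had the same order of libraries, with PM10/OVA highest, PM10 next and control lowest. Il1f9, which encodes a cytokine of the interleukin-1 family, was at 2.77 CPM in PM10/OVA/Dex, against 21.6 CPM in PM10/OVA (7.80-fold lower, 5.45 to 11.5). Weakly expressed cytokines rested on few counts. Tnf had 12 counts in PM10/OVA/Dex, against 112 in PM10/OVA (7.0-fold lower, 3.85 to 14), Osm, oncostatin M, had 11 counts in PM10/OVA/Dex, against 115 in PM10/OVA (7.84-fold lower, 4.22 to 16.1), and Il6 had 5 counts in PM10/OVA/Dex, against 58 in PM10/OVA (8.70-fold lower, 3.52 to 27.8).

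Acute-phase proteins and enzymes of activated macrophages held the lowest ratio of all. Irg1, annotated as Acod1 and encoding the itaconate-producing enzyme of activated macrophages and neutrophils (chromosome 14, 103046977 to 103056573), had 11 counts in PM10/OVA/Dex, against 776 in PM10/OVA (52.9-fold lower, 29.4 to 106). Its levels were 0.925 CPM in PM10/OVA/Dex, 1.04 in PM10/OVA/CPX, 49 in PM10/OVA, 49 in PM10 and 0.115 in control, so that PM10 and PM10/OVA were alike and both treated libraries were near the floor. Arg1, arginase, was at 5.63 CPM in PM10/OVA/Dex, 10.6 in PM10/OVA/CPX, 104 in PM10/OVA, 2.98 in PM10 and 2.54 in control (18.5-fold lower, 14.5 to 24), high in PM10/OVA alone. The haem-degrading enzyme Hmox1 had 40.0 CPM in PM10/OVA/Dex, against 153 CPM in PM10/OVA (3.82-fold lower, 3.47 to 4.23). Those were the 3 of 16 eicosanoid and effector enzymes at least 2-fold lower, and the list's median was -0.21. Ptgs1, cyclooxygenase 1, had 54.3 CPM in PM10/OVA/Dex, against 99.4 CPM in PM10/OVA, and Ltc4s, the leukotriene C4 synthase, 10.8 CPM in PM10/OVA/Dex, against 6.12 CPM in PM10/OVA. Gpr84, a receptor for medium-chain fatty acids on activated macrophages and neutrophils, had 5 counts in PM10/OVA/Dex, against 139 in PM10/OVA (20.9-fold lower, 8.73 to 65.2).

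Saa3, the serum amyloid A made in lung and macrophages (chromosome 7, 46711998 to 46715700), was at 44.7 CPM in PM10/OVA/Dex, 67 in PM10/OVA/CPX, 694 in PM10/OVA, 463 in PM10 and 2.19 in control, 15.5-fold lower (14.2 to 17) in PM10/OVA/Dex. Among 21 acute-phase and complement genes 7 were at least 2-fold lower and the median was -0.50. Serpina3n, a protease inhibitor, had 105 CPM in PM10/OVA/Dex, against 311 CPM in PM10/OVA (2.95-fold lower, 2.78 to 3.15). The orosomucoids Orm1 and Orm2 had 40 counts in PM10/OVA/Dex, against 326 in PM10/OVA, and 9 counts in PM10/OVA/Dex, against 117 in PM10/OVA, and as near-identical genes their separate values are uncertain. Hpx, which binds free haem, was at 1.01 CPM in PM10/OVA/Dex, against 14.3 CPM in PM10/OVA (14.1-fold lower, 7.93 to 27.8). In the list of metallothionein, iron and haem genes, 5 of 20 were at least 2-fold lower and 1 higher, with a median of -0.41. The higher one was Hamp, which encodes the iron hormone hepcidin, at 4.62 CPM in PM10/OVA/Dex, 1.04 in PM10/OVA/CPX, 1.51 in PM10/OVA, 3.56 in PM10 and 18.6 in control.

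Interferon-response genes were lower in PM10/OVA/Dex, and the PM10 library stood above all others for them. Of 32 measured genes 12 were at least 2-fold lower, 31 lay below 0 and the median log2 ratio was -0.82. Summed CPM was 1470.4 CPM in PM10/OVA/Dex, 1931 in PM10/OVA/CPX, 2075 in PM10/OVA, 5015 in PM10 and 1653 in control. PM10/OVA/Dex was therefore below the control library in this sum. Cxcl10, a ligand that draws T cells through Cxcr3, was at 0.420 CPM in PM10/OVA/Dex, 3.19 in PM10/OVA/CPX, 14.3 in PM10/OVA, 25.2 in PM10 and 1.27 in control, and on 5 counts, against 226, PM10/OVA/Dex was 33.9-fold lower (14.3 to 105). Cxcl9, a second Cxcr3 ligand, was at 1.43 CPM in PM10/OVA/Dex, 2.32 in PM10/OVA/CPX, 15.5 in PM10/OVA, 18.4 in PM10 and 0.980 in control (10.9-fold lower, 6.64 to 18.9). For Cxcl11, another, PM10/OVA/Dex had 1 count and PM10/OVA 50 counts (37.5-fold lower, 6.43 to 1511). The antiviral gene Rsad2, viperin, was at 10.6 CPM in PM10/OVA/Dex, 20.1 in PM10/OVA/CPX, 47 in PM10/OVA, 112 in PM10 and 19.4 in control, and the interferon-induced GTPase Iigp1 had 32.1 CPM in PM10/OVA/Dex, against 108 CPM in PM10/OVA.

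Transcripts that mark leukocytes were lower for several cell types. Among 21 neutrophil genes 10 were at least 2-fold lower and 1 higher, the median log2 ratio was -0.85 and the summed level was 1249.7 CPM in PM10/OVA/Dex, 1560.5 in PM10/OVA/CPX, 2507 in PM10/OVA, 1562 in PM10 and 759.5 in control. Lcn2 alone held 462 CPM of that sum in PM10/OVA/Dex, 716 in PM10/OVA/CPX, 1390.4 in PM10/OVA, 980.1 in PM10 and 68.6 in control. The order of the summed levels therefore rests largely on Lcn2. Clec4e and Clec4d, lectin receptors of myeloid cells, had 12 CPM in PM10/OVA/Dex, against 51.2 CPM in PM10/OVA, and 16.5 CPM in PM10/OVA/Dex, against 52.2 CPM in PM10/OVA. The member that was higher, Ltf, encodes lactoferrin, which neutrophils and airway glands both make, and had 305 CPM in PM10/OVA/Dex, 79 in PM10/OVA/CPX, 88.9 in PM10/OVA, 92.9 in PM10 and 409.5 in control. Monocyte and interstitial macrophage genes were mixed. Of 24 genes 6 were at least 2-fold lower and 9 lay above 0, with a median of -0.20. Cd14, a co-receptor for endotoxin, had 51.7 CPM in PM10/OVA/Dex, against 148 CPM in PM10/OVA, Itgam, the integrin CD11b, 44.4 CPM in PM10/OVA/Dex, against 122 CPM in PM10/OVA, Spp1, osteopontin, 76.7 CPM in PM10/OVA/Dex, against 198 CPM in PM10/OVA, Ms4a4c 8.75 CPM in PM10/OVA/Dex, against 22.3 CPM in PM10/OVA, and Fcgr1, an antibody receptor, 8.41 CPM in PM10/OVA/Dex, against 18.7 CPM in PM10/OVA.

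Alveolar macrophage genes did not share in this. Of 20 genes 14 lay above 0, 2 were at least 2-fold higher, none was lower by as much, and the median was 0.25. The pair past 2-fold were Chil3 and Fabp4, a lipid-binding protein that fat cells also express (66 CPM in PM10/OVA/Dex, against 23.2 CPM in PM10/OVA). Among 24 dendritic cell and class II genes 4 lay above 0 and the median was -0.40. Ccl22, a chemokine of activated dendritic cells and macrophages, had 6.90 CPM in PM10/OVA/Dex, against 21.7 CPM in PM10/OVA, Fscn1, which marks mature dendritic cells, 29 CPM in PM10/OVA/Dex, against 63.3 CPM in PM10/OVA, and Ccr7, which directs them to lymph nodes, 11.9 CPM in PM10/OVA/Dex, against 25.5 CPM in PM10/OVA. The costimulator Cd80 had 25 counts in PM10/OVA/Dex, against 62 in PM10/OVA, and H2-DMb1, of the class II loading complex, was 1.56-fold lower (1.33 to 1.84).

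B cell genes were among the lists with the lowest medians. Of 19 genes 11 were at least 2-fold lower, 2 lay above 0 and the median log2 ratio was -1.02. Summed CPM was 264 CPM in PM10/OVA/Dex, 394 in PM10/OVA/CPX, 524 in PM10/OVA, 375 in PM10 and 426 in control, the PM10/OVA/Dex library being the lowest of the 5, below control. Fcer2a, the low-affinity IgE receptor CD23, was at 6.39 CPM in PM10/OVA/Dex, 18.7 in PM10/OVA/CPX, 40.1 in PM10/OVA, 19.8 in PM10 and 16.4 in control (6.28-fold lower, 4.94 to 8.07). Cd79b, part of the B cell receptor, had 21.9 CPM in PM10/OVA/Dex, against 62.1 CPM in PM10/OVA (2.84-fold lower, 2.47 to 3.27), Cr2, complement receptor 2, 3.20 CPM in PM10/OVA/Dex, against 10.5 CPM in PM10/OVA, and Fcmr, an IgM receptor, 8.83 CPM in PM10/OVA/Dex, against 25.4 CPM in PM10/OVA. Genes of lymphoid tissue were also lower, on a list that shares members with others. Of 12 genes 4 were at least 2-fold lower, with a median of -0.76. Among those 4 were Fcer2a, also on the B cell list, and Ccr7, also on the dendritic cell list. Cxcl13, which draws B cells into follicles, was at 17.4 CPM in PM10/OVA/Dex, 10.5 in PM10/OVA/CPX, 56.2 in PM10/OVA, 52.4 in PM10 and 9.63 in control, and its receptor Cxcr5 had 6.98 CPM in PM10/OVA/Dex, against 15.7 CPM in PM10/OVA. Ltb, lymphotoxin beta, had 40.3 CPM in PM10/OVA/Dex, against 69.3 CPM in PM10/OVA.

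T cell and NK cell genes were lower by smaller ratios, with a median of -0.49 beside -0.29 for the 20 housekeeping genes. Of the 32 genes 31 lay below 0 and 3 were at least 2-fold lower. Those 3 were the granzymes Gzmb (2.61 CPM in PM10/OVA/Dex, against 9.15 CPM in PM10/OVA) and Gzma (21.8 CPM in PM10/OVA/Dex, against 53.7 CPM in PM10/OVA), killer proteases, and Tbx21, a transcription factor of type 1 T cells, on 17 counts in PM10/OVA/Dex, against 65 in PM10/OVA. Il2ra, the interleukin-2 receptor alpha chain, had 4.12 CPM in PM10/OVA/Dex, against 9.08 CPM in PM10/OVA, and Ccl5, a chemokine of T and NK cells, 17 CPM in PM10/OVA/Dex, against 32.4 CPM in PM10/OVA. Plasma cell genes went the other way in part. Jchain, the joining chain of secreted IgA and IgM, was at 377 CPM in PM10/OVA/Dex, 942 in PM10/OVA/CPX, 74.4 in PM10/OVA, 44.5 in PM10 and 49.6 in control (5.07-fold higher, 4.75 to 5.41), and Mzb1, a chaperone of antibody secretion, at 25 CPM in PM10/OVA/Dex, against 10.9 CPM in PM10/OVA. The other 8 measured members of the plasma cell list lay within 2-fold, 2 above 0 and 6 below, among them Pou2af1, a B cell coactivator, with 16.1 CPM in PM10/OVA/Dex, against 29.2 CPM in PM10/OVA, and Prdm1, the transcription factor Blimp-1, with 16.1 CPM in PM10/OVA/Dex, against 25.3 CPM in PM10/OVA. The list's median was -0.10.

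Genes of the type 2 response, the arm that allergen drives, showed no common shift. Of 15 measured type 2 cytokine, receptor and chemokine genes, 2 were at least 2-fold lower, none at least 2-fold higher, and the median was -0.09. The lower pair were chemokines, Ccl24, an eotaxin, at 1.85 CPM in PM10/OVA/Dex, 3.83 in PM10/OVA/CPX, 9.78 in PM10/OVA, 0.994 in PM10 and 2.25 in control (5.29-fold lower, 3.37 to 8.68), and Ccl22. Ccl17, which like Ccl22 draws Ccr4-bearing T cells, had 8.66 CPM in PM10/OVA/Dex, against 14.1 CPM in PM10/OVA, Gata3, the transcription factor of type 2 cells, 7.32 CPM in PM10/OVA/Dex, against 10.5 CPM in PM10/OVA, and Il5ra, the interleukin-5 receptor alpha chain, 4.46 CPM in PM10/OVA/Dex, against 2.84 CPM in PM10/OVA. The cytokines Il5 and Il13 were below the level that counts as measured, with 1 count in PM10/OVA/Dex, against 8 in PM10/OVA, and 2 counts in PM10/OVA/Dex, against 7 in PM10/OVA, and were picked after their values were seen. Among 8 measured eosinophil genes none passed 2-fold on the log2(CPM + 1) scale. Prg2, the eosinophil major basic protein, had 12 counts in PM10/OVA/Dex, against 44 in PM10/OVA (2.75-fold lower, 1.43 to 5.72), and the other named members were Cd300lf, an inhibitory receptor of myeloid cells (21.3 CPM in PM10/OVA/Dex, against 43 CPM in PM10/OVA), and the ribonucleases Ear1 (61.5 CPM in PM10/OVA/Dex, against 33.6 CPM in PM10/OVA) and Ear6 (2.27 CPM in PM10/OVA/Dex, against 4.35 CPM in PM10/OVA), which belong to a family of near-identical genes.

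Mast cell genes moved in both directions. Of 10 measured genes 3 were at least 2-fold higher and 1 lower. The mast cell proteases Mcpt1 and Mcpt2 had 34 counts in PM10/OVA/Dex, against 4 in PM10/OVA, and 33 counts in PM10/OVA/Dex, against 12 in PM10/OVA, and the tryptase Tpsb2 had 25 counts in PM10/OVA/Dex, against 7 in PM10/OVA. Ms4a2, a chain of the high-affinity IgE receptor on mast cells and basophils, had 6 counts in PM10/OVA/Dex, against 61 in PM10/OVA (7.63-fold lower, 3.31 to 21.6), and Hdc, which makes histamine, 60.5 CPM in PM10/OVA/Dex, against 106 CPM in PM10/OVA. Mcpt genes are close relatives, and their separate values are uncertain.

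Mucous cell products were split. Of 18 measured genes, 5 exceeded PM10/OVA by 2-fold or more in PM10/OVA/Dex and 2 were lower by as much. The median was 0.51, or 0.19 with 5 CPM added before the logarithm and 0.31 when unmeasured members were kept. Clca1, a secreted product of goblet cells (chromosome 3, 145003817 to 145032776), was at 1633 CPM in PM10/OVA/Dex, 5154 in PM10/OVA/CPX, 313 in PM10/OVA, 7.12 in PM10 and 1.61 in control (5.22-fold higher, 5.06 to 5.39). The gel-forming mucin Muc5ac was at 92.9 CPM in PM10/OVA/Dex, 231 in PM10/OVA/CPX, 30.6 in PM10/OVA, 11 in PM10 and 4.09 in control (3.04-fold higher, 2.73 to 3.39), and Fcgbp, a mucus protein, at 119 CPM in PM10/OVA/Dex, 283 in PM10/OVA/CPX, 36.3 in PM10/OVA, 7.54 in PM10 and 19.8 in control (3.28-fold higher, 2.97 to 3.62). For all 3, PM10/OVA/CPX was the highest library, PM10/OVA/Dex the next and PM10/OVA followed. The pair that was lower were Slc26a4, the anion exchanger pendrin, at 31.4 CPM in PM10/OVA/Dex, 121 in PM10/OVA/CPX, 90.7 in PM10/OVA, 19.6 in PM10 and 1.04 in control (2.89-fold lower, 2.58 to 3.25), and Agr2, which folds mucins, at 9.17 CPM in PM10/OVA/Dex, 23.2 in PM10/OVA/CPX, 26.1 in PM10/OVA, 3.40 in PM10 and 4.67 in control (2.84-fold lower, 2.30 to 3.54). Agr2 and the mucin Muc5ac thus had opposite ratios.

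Chitinase and chitinase-like genes also differed in direction. The study's other treatment is labelled a chitinase-1 inhibitor. Chil4 (chromosome 3, 106201490 to 106219507) was at 40.8 CPM in PM10/OVA/Dex, 507 in PM10/OVA/CPX, 3.53 in PM10/OVA, 0 in PM10 and 0 in control (11.5-fold higher, 8.74 to 15.5). Chil3, a lectin of alternatively activated and alveolar macrophages, was at 1427 CPM in PM10/OVA/Dex, 4455 in PM10/OVA/CPX, 509.6 in PM10/OVA, 309 in PM10 and 108 in control (2.80-fold higher, 2.73 to 2.88). The acidic chitinase Chia1 was 1.70-fold higher (1.62 to 1.80), while Chil1, a chitinase-like protein without enzyme activity, was at 1533 CPM in PM10/OVA/Dex, against 3067 CPM in PM10/OVA (2.0-fold lower, 1.97 to 2.04). Chit1, encoding chitinase-1, had 0 counts in all 5 libraries, where 3 counts would be 0.252 CPM in PM10/OVA/Dex and 0.189 CPM in PM10/OVA. Over 20 alternatively activated macrophage and chitinase genes, 2 were at least 2-fold higher and 3 lower, Arg1 among them, with a median of 0.05. Chil3 and Chil4 are paralogs, so their reads may have been split unevenly.

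Airway epithelium was higher in secretory genes and level in alveolar ones. Of 19 club cell genes 17 lay above 0 and 4 were at least 2-fold higher, with a median of 0.46 and a summed level of 35835 CPM in PM10/OVA/Dex, 27524 in PM10/OVA/CPX, 26748 in PM10/OVA, 21555 in PM10 and 32138 in control. That sum rests mostly on club cell genes not named here. Scgb3a1, a secretoglobin of the larger airways, was at 929 CPM in PM10/OVA/Dex, 438 in PM10/OVA/CPX, 244 in PM10/OVA, 166 in PM10 and 360.1 in control (3.80-fold higher, 3.67 to 3.95). The cytochrome Cyp2a5 was at 76.7 CPM in PM10/OVA/Dex, 10.6 in PM10/OVA/CPX, 33.2 in PM10/OVA, 35.5 in PM10 and 297 in control, Sult1d1, a sulfotransferase, at 21.4 CPM in PM10/OVA/Dex, against 8.01 CPM in PM10/OVA, Chad, chondroadherin, at 57 CPM in PM10/OVA/Dex, against 21 CPM in PM10/OVA, and Scgb3a2, a secretoglobin, at 595 CPM in PM10/OVA/Dex, against 317 CPM in PM10/OVA. Among 22 ciliated cell genes 18 lay above 0, none passed 2-fold and the median was 0.29. Foxj1, the transcription factor of motile cilia, had 87.5 CPM in PM10/OVA/Dex, against 48.5 CPM in PM10/OVA. Alveolar type 2 genes had a median of -0.13 over 18 genes and alveolar type 1 genes of -0.11 over 18, and no member of either passed 2-fold.

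Basal and submucosal gland genes were higher. Of 11 measured genes 7 were at least 2-fold higher and none lower, with a median of 1.27, or 0.72 with 5 CPM added. Bpifa1, a secreted defence protein of the upper airways, was at 464 CPM in PM10/OVA/Dex, 60.1 in PM10/OVA/CPX, 88.8 in PM10/OVA, 74.5 in PM10 and 1264 in control (5.22-fold higher, 4.92 to 5.54). The basal cell keratins Krt15 and Krt5 were on 74 counts in PM10/OVA/Dex, against 10 in PM10/OVA (9.86-fold higher, 5.07 to 21.4), and 41 counts in PM10/OVA/Dex, against 2 in PM10/OVA (27.3-fold higher, 7.10 to 233). Gp2, a glycoprotein that binds bacteria, was at 16.9 CPM in PM10/OVA/Dex, 7.19 in PM10/OVA/CPX, 3.60 in PM10/OVA, 2.65 in PM10 and 0.692 in control, highest in PM10/OVA/Dex. The summed level of the list was 1585 CPM in PM10/OVA/Dex, 994 in PM10/OVA/CPX, 793 in PM10/OVA, 922 in PM10 and 2284 in control, with control the highest library. In PM10/OVA/Dex and control, Bpifa1 and Ltf hold much of that sum. Ltf, which is also on the neutrophil list, had 305 CPM in PM10/OVA/Dex, 88.9 in PM10/OVA and 409.5 in control.

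Of 6 lists named for tissues that border the lung, those of heart muscle, fat and cartilage were higher, and the other lists were near or below 0. Skeletal muscle had a median log2 ratio of 0.20 with 1 of 7 measured genes at least 2-fold higher, mesothelium 0.17 with 1 of 11, and thyroid and oesophagus -0.27 over 2 measured genes. Of 20 measured heart-muscle genes 9 were at least 2-fold higher, 19 lay above 0 and the median was 0.88. Nppa, the atrial hormone, was at 19.8 CPM in PM10/OVA/Dex, 0.958 in PM10/OVA/CPX, 1.07 in PM10/OVA, 4.64 in PM10 and 595 in control (18.4-fold higher, 11.3 to 32.2), Pln, phospholamban, at 31.6 CPM in PM10/OVA/Dex, against 6.43 CPM in PM10/OVA, Myh6, a myosin heavy chain of heart muscle, at 264 CPM in PM10/OVA/Dex, 75.1 in PM10/OVA/CPX, 92.3 in PM10/OVA, 304 in PM10 and 1182 in control, and Csrp3 and Ttn, of the sarcomere, were 4.12-fold higher (3.22 to 5.32) and 2.75-fold higher (2.33 to 3.26). Of 15 fat genes 7 were at least 2-fold higher and 14 above 0, with a median of 0.96 (1.50 with 0.25 CPM added and 1.49 for genes averaging at least 5 CPM), and a summed level of 315 CPM in PM10/OVA/Dex, 137 in PM10/OVA/CPX, 155 in PM10/OVA, 165 in PM10 and 745 in control. Thrsp, a lipogenic protein, was 5.0-fold higher (3.88 to 6.52), Plin1, the lipid-droplet coat protein, 4.69-fold higher (3.03 to 7.48), and Cfd, adipsin, 2.97-fold higher (2.54 to 3.48). Of 11 cartilage genes 7 were at least 2-fold higher and all were above 0, with a median of 1.09, which ran from 0.31 with 5 CPM added to 2.27 with 0.25 CPM. Col2a1, the cartilage collagen, had 27 counts in PM10/OVA/Dex, against 0 in PM10/OVA, at least 12-fold higher when 3 counts are set in PM10/OVA, and Acan, aggrecan, had 29 counts in PM10/OVA/Dex, against 2 in PM10/OVA (19.3-fold higher, 4.89 to 167).

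Summed cartilage CPM was 18.5 CPM in PM10/OVA/Dex, 5.51 in PM10/OVA/CPX, 4.04 in PM10/OVA, 23 in PM10 and 125 in control, and 3 measured cartilage genes were at 0 counts in PM10/OVA while none was in PM10/OVA/Dex. Of 46 measured genes on the heart, fat and cartilage lists, 23 were among the 172 higher genes, and the control library was the highest of the 5 for 45. A gene can count as measured through its control level alone, since the filter uses the mean over the 5 libraries. The count of 45 is therefore in part built in. Without the filter the cartilage median was 0.65. Among the 20 genes ranked highest, Hspa1b, Hspa1a, Bpifa6, Atp6v0c-ps2, Nppa, Chil4, Col10a1, Sult1c1, Clca3b, Myoc, Clca1, Bpifa1, Jchain, Psapl1, Slc5a8, Car3, Krt15, Pln, Thrsp and Scara5, control was the highest library for 9 and PM10/OVA/Dex for 8. Ranking by a high ratio itself favours a high PM10/OVA/Dex level. Col10a1, a collagen of growing cartilage, had 82 counts in PM10/OVA/Dex, against 1 in PM10/OVA (109-fold higher, 19.1 to 4369.5), and Car3, a carbonic anhydrase of muscle and fat, was at 74.8 CPM in PM10/OVA/Dex, 12.4 in PM10/OVA/CPX, 15.2 in PM10/OVA, 29.8 in PM10 and 253 in control. Bpifa6 had 141 counts in PM10/OVA/Dex, against 0 in PM10/OVA, at least 62.7-fold higher against 3 counts. The part of differing amounts of bordering tissue or large airway in any of these ratios was not tested. Atp6v0c-ps2 is a processed pseudogene whose reads may belong to its parent gene.

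**Figure D4:**
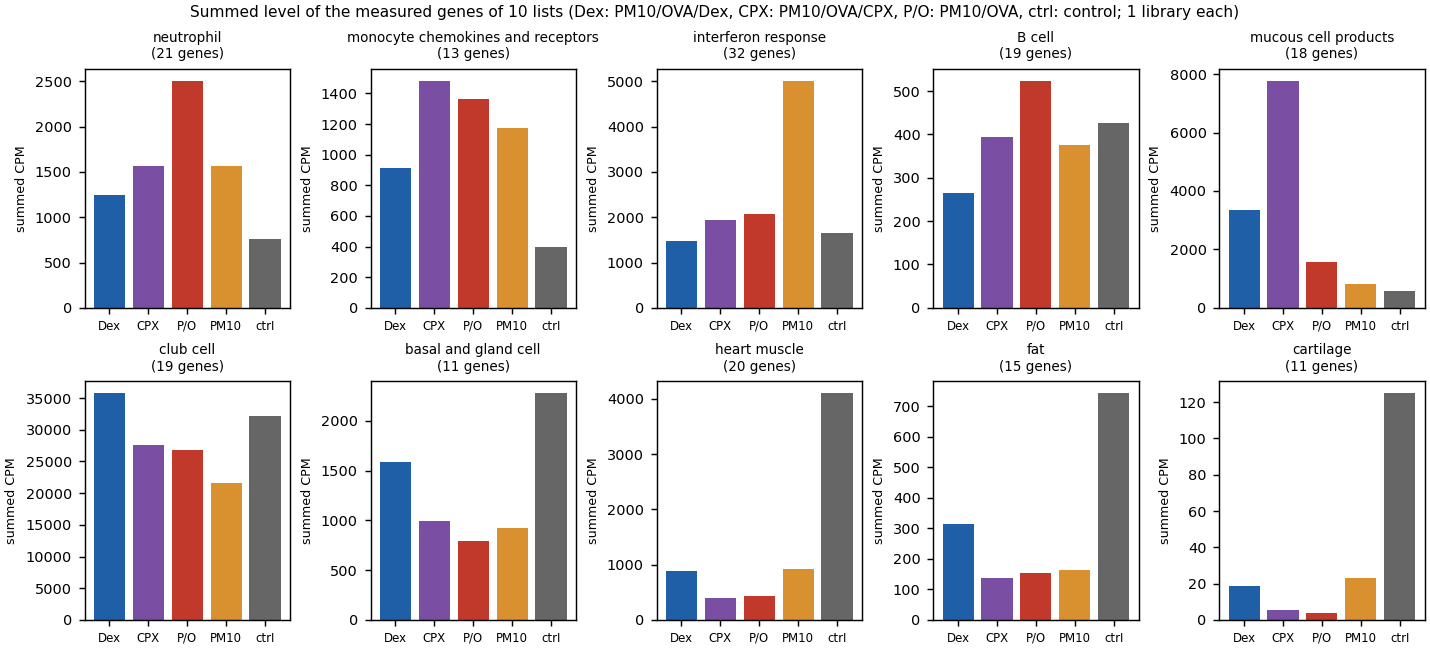
Bars are the summed CPM of the measured genes of 10 lists in each library, 1 library per group, with PM10/OVA/Dex at the left and control at the right of each panel. Neutrophil, B cell and interferon sums are lower in PM10/OVA/Dex than in PM10/OVA, and the basal and gland, heart, fat and cartilage sums are higher in PM10/OVA/Dex and highest in control. Of the neutrophil sum, Lcn2 is 462 CPM in PM10/OVA/Dex and 1390.4 CPM in PM10/OVA.

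The 2 highest ratios of all were heat-shock genes. Hspa1b and Hspa1a, which encode the inducible chaperone Hsp70 and lie beside each other on chromosome 17 (34956436 to 34959238, and 34969190 to 34972156), are nearly identical and may not be separate values. Hspa1b was at 188 CPM in PM10/OVA/Dex, 9.34 in PM10/OVA/CPX, 7.82 in PM10/OVA, 71.7 in PM10 and 44.4 in control (24.1-fold higher, 20.1 to 29.1), and Hspa1a at 136 CPM in PM10/OVA/Dex, 6.23 in PM10/OVA/CPX, 6.31 in PM10/OVA, 50.7 in PM10 and 36.7 in control (21.5-fold higher, 17.6 to 26.6). PM10 and control lung lay between PM10/OVA/Dex and the other libraries. Dnajb1, an Hsp70 partner, was at 171 CPM in PM10/OVA/Dex, 45.6 in PM10/OVA/CPX, 53 in PM10/OVA, 103 in PM10 and 67.9 in control (3.24-fold higher, 2.98 to 3.51), Hspb1, a small heat-shock protein, was 1.89-fold higher (1.75 to 2.05) and Dnaja1, another partner, 1.67-fold higher (1.60 to 1.75). Of 17 heat-shock genes 3 were at least 2-fold higher and 14 above 0, with a median of 0.36. Immediate-early genes, which respond within minutes to stimulation and to handling of tissue, counted 3 of 26 at least 2-fold higher and 2 lower, around a median of 0.25. Klf4 was at 307 CPM in PM10/OVA/Dex, 156 in PM10/OVA/CPX, 104 in PM10/OVA, 219 in PM10 and 189 in control, the nuclear receptors Nr4a2 and Nr4a3 were 3.05-fold higher (2.25 to 4.16) and 2.43-fold higher (1.94 to 3.05), and the lower pair were Egr3 (4.12 CPM in PM10/OVA/Dex, against 9.97 CPM in PM10/OVA) and Cyr61, a matrix-associated protein (64.1 CPM in PM10/OVA/Dex, against 133 CPM in PM10/OVA).

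Most matrix genes lay within 2-fold, with a few lower ones. The lowest was Timp1, a protease inhibitor. Timp1, which blocks metalloproteinases (chromosome X, 20870166 to 20874735), was at 8.16 CPM in PM10/OVA/Dex, 8.14 in PM10/OVA/CPX, 108 in PM10/OVA, 32.6 in PM10 and 2.36 in control (13.2-fold lower, 10.8 to 16.4). Of 25 metalloproteinases and inhibitors 3 were at least 2-fold lower and the median was -0.20, the others being Mmp3, stromelysin (14.8 CPM in PM10/OVA/Dex, against 38.7 CPM in PM10/OVA), and Adamts4, an aggrecanase (on 14 counts in PM10/OVA/Dex, against 63 in PM10/OVA). Mmp19 had 37.2 CPM in PM10/OVA/Dex, against 67.2 CPM in PM10/OVA, and Mmp9, a gelatinase of neutrophils and macrophages, 22.6 CPM in PM10/OVA/Dex, against 40.4 CPM in PM10/OVA. Among 35 collagen and matrix genes 1 was at least 2-fold lower, Vcan, the proteoglycan versican (10.5 CPM in PM10/OVA/Dex, 13 in PM10/OVA/CPX, 33.8 in PM10/OVA, 36.9 in PM10 and 22.2 in control), and the median was -0.19. The basement-membrane collagens Col15a1 and Col18a1 had 17.2 CPM in PM10/OVA/Dex, against 30.5 CPM in PM10/OVA, and 51.7 CPM in PM10/OVA/Dex, against 85.8 CPM in PM10/OVA, and Tnc, tenascin C, 20.3 CPM in PM10/OVA/Dex, against 35.5 CPM in PM10/OVA, whereas Dcn, decorin, had 219 CPM in PM10/OVA/Dex, against 125 CPM in PM10/OVA.

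Of 26 TGF-beta and myofibroblast genes, 2 were at least 2-fold lower and the median was 0.02. The pair were Cyr61 and Tgfbi, a TGF-beta-induced matrix protein (93.5 CPM in PM10/OVA/Dex, 102 in PM10/OVA/CPX, 230.5 in PM10/OVA, 197 in PM10 and 75 in control). Itgb6, an integrin chain that activates TGF-beta, had 29.7 CPM in PM10/OVA/Dex, against 54.9 CPM in PM10/OVA, Inhba, a chain of activin A, 5.80 CPM in PM10/OVA/Dex, against 11.8 CPM in PM10/OVA, and Smad6, an inhibitor of BMP signalling, 297 CPM in PM10/OVA/Dex, against 165 CPM in PM10/OVA. Fibroblast and pericyte genes had a median of 0.25 over 27 genes. Scara5, a ferritin receptor of adventitial fibroblasts, was at 29.1 CPM in PM10/OVA/Dex, 14.4 in PM10/OVA/CPX, 5.99 in PM10/OVA, 17.4 in PM10 and 28 in control (4.86-fold higher, 3.86 to 6.16), and Rgs5, of pericytes, at 27.7 CPM in PM10/OVA/Dex, 17.6 in PM10/OVA/CPX, 8.33 in PM10/OVA, 8.61 in PM10 and 21.9 in control (3.33-fold higher, 2.72 to 4.11). Endothelial genes had a median of 0.08 over 27, and the 1 gene at least 2-fold lower was Selp, P-selectin, which captures leukocytes on activated vessels, at 7.15 CPM in PM10/OVA/Dex, 7.43 in PM10/OVA/CPX, 22 in PM10/OVA, 5.96 in PM10 and 4.61 in control (3.07-fold lower, 2.42 to 3.94). Its relative Sele, E-selectin, had 32 counts in PM10/OVA/Dex, against 100 in PM10/OVA, while Sox18, a transcription factor of endothelium, had 181 CPM in PM10/OVA/Dex, against 95.8 CPM in PM10/OVA.

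Cell cycle genes lay mostly below 0, and those at least 2-fold lower act in DNA replication. Of 38 genes 5 lay above 0 and 5 were at least 2-fold lower, with a median of -0.40 and a summed level of 423 CPM in PM10/OVA/Dex, 554 in PM10/OVA/CPX, 647 in PM10/OVA, 927 in PM10 and 409 in control. The replicative helicase subunits Mcm5, Mcm6, Mcm3 and Mcm2 made up 4 of the 5. Mcm5 had 13.2 CPM in PM10/OVA/Dex, against 42.1 CPM in PM10/OVA (3.19-fold lower, 2.68 to 3.82), Mcm6 14.5 CPM in PM10/OVA/Dex, against 34.1 CPM in PM10/OVA, Mcm3 19.8 CPM in PM10/OVA/Dex, against 42.8 CPM in PM10/OVA and Mcm2 15.5 CPM in PM10/OVA/Dex, against 33.3 CPM in PM10/OVA. Rrm2, a subunit of ribonucleotide reductase, was the fifth, at 4.46 CPM in PM10/OVA/Dex, against 10.1 CPM in PM10/OVA. The PM10/OVA/Dex sum was close to that of control, and PM10 was the highest library.

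**Figure D5:**
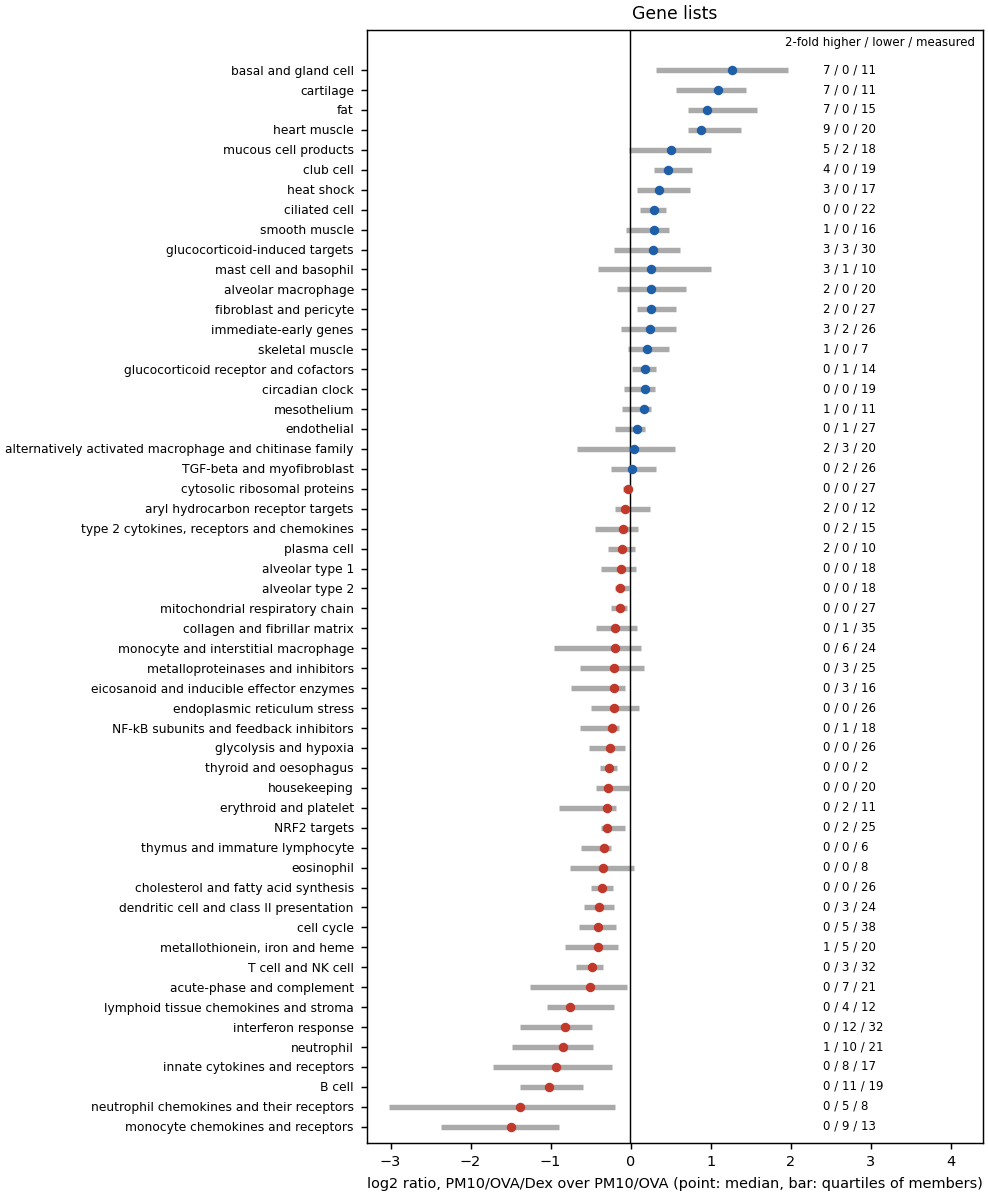
Each row is 1 of 54 gene lists, ordered by the median log2 ratio of its measured genes, PM10/OVA/Dex over PM10/OVA. Points are medians, bars run between the quartiles of the members, the vertical line is the median of all measured genes (-0.01), and the numbers at the right count members higher by 2-fold or more, lower by 2-fold or more, and measured. Monocyte and neutrophil chemokines, B cell, cytokine, neutrophil and interferon lists lie at the bottom, and basal and gland, cartilage, fat and heart-muscle lists at the top.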

How the data were processed

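RNA of whole lung was sequenced in 5 groups, 1 library each. Trizol extraction and a strand-preserving NEBNext Ultra II Directional library from 1.3 ug of total RNA are stated per the labels' protocols. Reads were aligned with TopHat to mm10, per the submitters' processing notes. The files the authors deposited hold raw counts per gene symbol, not normalized. The sources used here do not give the counting tool, its annotation, its strand setting or its treatment of reads shared between genes, so near-identical, overlapping and antisense genes are uncertain.

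Counts were scaled to CPM with TMM factors over the 5 libraries (edgeR 4.0.16, R 4.3.3), which ran from 0.989 to 1.02. Log2 ratios were taken on CPM + 1 in genes averaging at least 1 CPM. With 1 library per group no test was possible. Intervals of gene ratios are exact (Clopper-Pearson conditional), and like the floor of 3 counts cover counting error only. The procedure was tested on simulated data. Gene lists and members of the comparison were chosen with earlier results of these data known. Medians and counts of a list cover measured members. Of 1045 different genes on the lists, 75 are on more than 1 list, so the lists are not independent. Named genes are the 20 highest and 20 lowest ratios (without predicted models, small RNAs and receptor segments), all glucocorticoid-induced targets, the chitinase genes and up to 5 members with the largest ratio in each described list, of which some are not reported here. Predicted model Gm7334 and the clone BC048546, which ranked within the 20 highest, are left out by that rule. Coordinates and lengths come from GENCODE M21 (GRCm38, the assembly of mm10) and promoter windows from RefSeq. Alternatives were DESeq2 1.42.0 size factors, library totals, pseudocounts of 0.25 and 5 CPM, no filter, a minimum mean of 5 CPM, and removal of the trend on exonic length (14222 of 14305 genes had one).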

Additional observations from a re-analysis of the deposited data

How the results depend on the processing

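With DESeq2 size factors, library totals and the length trend removed, both counts of genes and all list medians of at least 0.5 in size stayed within 1.5 times their values or within 0.1. Genes at least 2-fold higher numbered 294 with a pseudocount of 0.25 CPM, 55 with 5 CPM and 106 with a minimum mean of 5 CPM, against 172, and genes at least 2-fold lower numbered 101 with 5 CPM, against 229. Those changes follow from the construction of the alternatives: a smaller constant shrinks the ratios of weakly expressed genes less and a larger one more, and a higher minimum leaves such genes out. The 172 higher genes were all among the 294, and 106 of them average at least 5 CPM. The fat median was 1.50 with 0.25 CPM and 1.49 with a minimum of 5 CPM. The cartilage median was 2.27 with 0.25 CPM, 0.31 with 5 CPM and 0.65 without a filter. Mucous cell products had 0.19 with 5 CPM and 0.31 without a filter, basal and gland genes 0.72 with 5 CPM, and innate cytokines -0.61 without a filter. No list median of at least 0.5 in size changed sign in these alternatives. Each named gene's CPM ratio under DESeq2 size factors or library totals lay within its counting interval. No paired analysis was possible because each group has 1 library, and leaving out a replicate was not possible for the same reason. Genes under about 5 CPM in both libraries, 54 of the 172 higher and 39 of the 229 lower, rest on few counts.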

Other observations

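Several metabolic and stress lists were lower in PM10/OVA/Dex by small ratios shared across their members. Of 26 endoplasmic reticulum stress genes 7 lay above 0, with a median log2 ratio of -0.21 and a summed level of 5325 CPM in PM10/OVA/Dex, 5170.2 in PM10/OVA/CPX, 7146 in PM10/OVA, 5519.8 in PM10 and 4474 in control. PM10/OVA was the highest library for that sum. Sdf2l1, a chaperone cofactor, had 37.1 CPM in PM10/OVA/Dex, against 72.2 CPM in PM10/OVA, Calr, calreticulin, 582 CPM in PM10/OVA/Dex, against 999 CPM in PM10/OVA, and Pdia4, a protein disulfide isomerase, 130.1 CPM in PM10/OVA/Dex, against 212 CPM in PM10/OVA. NRF2 targets, which answer oxidative stress, had a median of -0.30 over 25 genes, with 2 at least 2-fold lower. Those were Hmox1 and Slc7a11, the cystine transporter, at 18 CPM in PM10/OVA/Dex, 21.4 in PM10/OVA/CPX, 65.7 in PM10/OVA, 36 in PM10 and 3.98 in control (3.65-fold lower, 3.15 to 4.25).

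Cholesterol and fatty acid synthesis genes had a median of -0.36, with 3 of 26 above 0 and none past 2-fold, such as Fdps, farnesyl diphosphate synthase (51.2 CPM in PM10/OVA/Dex, against 78.7 CPM in PM10/OVA). Glycolysis and hypoxia genes had a median of -0.25 over 26, with Slc16a3, a lactate exporter, at 18.1 CPM in PM10/OVA/Dex, against 31.7 CPM in PM10/OVA, and Eno1, an enolase, at 85.4 CPM in PM10/OVA/Dex, against 147 CPM in PM10/OVA. The list of 20 housekeeping genes was also centred below 0, at -0.29, with Gapdh at 264 CPM in PM10/OVA/Dex, against 423 CPM in PM10/OVA, and Tfrc, the transferrin receptor, at 114 CPM in PM10/OVA/Dex, against 172 CPM in PM10/OVA. Ratios of that size therefore also occurred in genes commonly used as a reference. Cytosolic ribosomal protein genes had a median of -0.04 and respiratory chain genes of -0.13, over 27 genes each. Among 12 targets of the aryl hydrocarbon receptor, which senses combustion products, 2 were at least 2-fold higher and the median was -0.07. Cyp1a1, a cytochrome, was at 17.5 CPM in PM10/OVA/Dex, 12.3 in PM10/OVA/CPX, 5.87 in PM10/OVA, 5.88 in PM10 and 13 in control.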
